A study of Mus musculus with 3 samples.

Results

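Skeletal muscle-type cells of a wild-type mouse embryo at embryonic stage E15.5 were picked by their counts of 10 genes in a section imaged by MERFISH, an imaging method that identifies single RNA molecules within the tissue by a fluorescent barcode assigned to each gene. A cell was a member when it held at least 3 counts of Pdlim3 and at least 1 of Acta2, none of Tbx20 or Gata4, fewer than 2 of Myh11, and fewer than 2 in all of the endothelial genes Pecam1, Cdh5, Kdr, Emcn and Cldn5. The gate picked 3264 of the 195915 cells kept in the section, or 1.67% (exact binomial 95% interval 1.61 to 1.72%, counting error only), and 3264 of 203079 kept cells over all sections. The reference was the other 192651 kept cells of the same section.

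The study imaged 3 sagittal sections of wild-type whole embryos: 1 section of 1 embryo at E15.5, and 2 sections from 2 embryos at E9.5. No sample was treated. The tables gave counts of 296 genes and 19 blank codes, which stand for no gene, in each cell outlined by the instrument's software, and cells with at least 10 gene counts were kept (195915 of 219525 at E15.5, 89.2%). With 1 section at E15.5 there was no replicate, so no difference has a test or a replicate check, and intervals cover counting error only.

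Skeletal muscle arises from the somites, whose myogenic precursors divide, leave the cell cycle, and fuse into multinucleate fibres. Leaving the cycle is tied to cyclin-dependent kinase inhibitors, among them p21 (Cdkn1a) and p57 (Cdkn1c), and the differentiation programme is run by myogenic transcription factors of the MyoD family. Pdlim3 encodes ALP, a PDZ and LIM domain protein of the muscle Z-disc. Acta2 encodes smooth muscle actin, which immature skeletal muscle also makes. Myh11 is a myosin of smooth muscle, and Tbx20 and Gata4 are transcription factors of the heart.

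The defining markers of skeletal muscle could not be checked: the tables held 0 of 10 myogenic factors looked for (Myod1, Myog and Pax7 among them) and 0 of 9 skeletal sarcomere genes. The name therefore rests on Pdlim3 and Acta2 and on the absence of the other gate genes. Dlk1 and Cdkn1c are markers given for these cells but not used to pick them, and both were high in the members, as described below. They were given with earlier results of these data known, so their levels are no separate support for the name. A few small clumps of members went against the name, and they are described with the map.

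The promoters of the 2 genes that had to be present are shown because the gate turns on them. They are RefSeq sequences of mouse build GRCm38.p6, running 5′ to 3′ on the strand of the gene from 250 bases before to 50 bases after its start, with each CAGCTG in capitals. CAGCTG is a form of the E-box that MyoD family proteins are known to bind, and it reads the same on both strands.
Pdlim3, chr8:45885237-45885536, plus strand: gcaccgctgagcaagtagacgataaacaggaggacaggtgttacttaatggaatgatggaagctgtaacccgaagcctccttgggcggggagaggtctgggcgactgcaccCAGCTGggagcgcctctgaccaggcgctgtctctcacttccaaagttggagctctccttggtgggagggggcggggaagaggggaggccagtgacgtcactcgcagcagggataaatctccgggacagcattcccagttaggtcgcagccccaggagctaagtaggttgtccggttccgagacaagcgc
Acta2, chr19:34255324-34255623, minus strand: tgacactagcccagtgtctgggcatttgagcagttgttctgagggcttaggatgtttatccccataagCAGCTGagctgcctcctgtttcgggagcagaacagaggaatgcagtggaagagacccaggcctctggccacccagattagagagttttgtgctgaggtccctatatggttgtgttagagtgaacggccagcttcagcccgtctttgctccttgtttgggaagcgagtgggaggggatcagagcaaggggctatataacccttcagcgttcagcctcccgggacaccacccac
Each window held 1 CAGCTG, which began 139 bases before the start of Pdlim3 and 182 bases before the start of Acta2. The letters occurred in 5355 of 32851 mouse promoter windows of this length (16.3%), so a match is common and is given as a description. They occurred in 47 of the 214 panel genes outside the gate that had a window (21.96%) and in 3 of the 9 genes highest in members that had one. These counts are per gene, and any matching window of a gene sufficed, so they are not on the scale of the 16.3% of windows. The serum response element known as the CArG box was searched only as CCWWWWWWGG, where W is A or T, and other forms of it were not searched. It was in 0 of those 9 and in 1.63% of all windows. At so low a rate, 0 of 9 carries no information.

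By the choice of the gate, Pdlim3 ran from 3 to 50 counts in a member with a median of 5, and Acta2 from 1 to 26 with a median of 3. Myh11 was at 0 in 3072 members. To compare cells of different depth, levels are given as counts per 1000 counts of the 286 panel genes outside the gate. On that scale Pdlim3 stood at 27.0 in members and 1.60 in other kept cells, and Acta2 at 15.7 in members and 1.90 in other kept cells. These values chose the cells and are no result. Counts of different genes depend on their probes, so levels are set against each other only within a gene.

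The cut at 3 counts of Pdlim3 fell within a run of like cells. The 909 members with exactly 3 counts had 99.6 Cdkn1c, 54.2 Dlk1 and 20.8 Cdkn1a counts per 1000. The 1420 cells just outside, with 2 counts of Pdlim3 and the rest of the gate met, had 101 Cdkn1c, 51.8 Dlk1 and 19.7 Cdkn1a counts per 1000. The gate therefore took the Pdlim3-rich end of a larger set of cells.

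Members were large, deep cells. Their median was 215 counts of 56 genes, against 82 counts of 36 genes in other kept cells, and their median volume was 857 against 636 cubic micrometres. Counts per 1000 cubic micrometres had a median of 256 in members and 144 in other kept cells. Elongated outlines, with an anisotropy above 2, made up 9.34% of members and 5.53% of other kept cells. A gate that needs at least 4 counts favours deep cells, and how much of the gap in depth comes from the gate was not tested. Blank codes made up 0.279% of counts in members and 0.303% in other kept cells, so the rates were alike in both sets.

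Members lay together, which the gate did not use. Of the 15 kept cells nearest to a member, 21.2% on average were members as well, against 1.34% for the other kept cells and 1.67% of all kept cells. The median distance to the nearest other member was 11.5 µm, while the 15th nearest cell of any kind lay at a median of 22.8 µm. Members occupied 1076 of the 12466 squares of 50 µm that held cells (8.63%). In the fullest square 15 members made up 44.1% of the cells. At the other end, 321 members (9.83%) had no member among their 15 nearest cells.

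**Figure D1:**
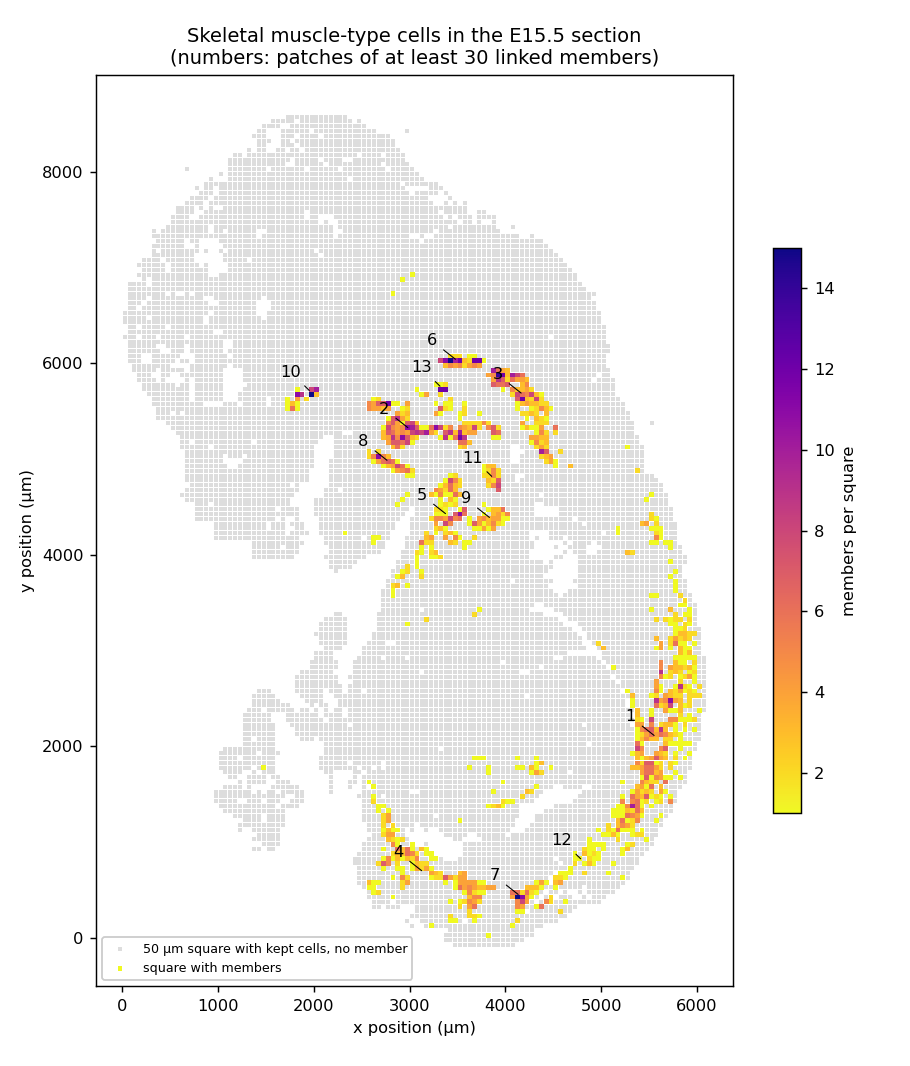
Position of members in the E15.5 section, with x and y in micrometres as read from the deposited cell centres. Grey squares of 50 µm hold kept cells and no member, coloured squares hold 1 to 15 members, and numbers mark the 13 patches of at least 30 linked members, of which patch 1 with 845 cells is the long band on the right.

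Joining members that lay within 75 µm of each other gave 91 clumps, a distance chosen after the positions were seen. The 13 clumps of at least 30 members, called patches here and numbered by size, held 2979 members (91.3%). Patch 1 held 845 members along a band with its centre at x 5582 and y 2088 µm, patch 2 held 549 at x 3010 and y 5303 µm, and patch 3 held 396 at x 4193 and y 5664 µm. The others held from 30 to 329. The sources used here give no anatomical outline of the section, so the patches are named by position only.

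Of 285 genes outside the gate with enough counts, 11 were at least 2-fold higher in members than in other kept cells (3.86%) and 118 were at least 2-fold lower (41.4%). The median gene had a fold of 0.565, or -0.82 on the log2 scale. Levels share a total, of which 5 imprinted genes took 465 per 1000 in members and 249 in other kept cells. Folds are read against that shift: a fold of 1 on this scale lies above the median gene. Counted per cell, every fold is 2.10 times as large, the split becomes 54 genes higher and 31 lower, and 124 genes that are below 1 per 1000 counts are above 1 per cell. Counted per cell volume, the split becomes 27 genes higher and 55 lower. The 11 higher genes and the 10 lowest genes kept their calls on both of those scales.

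Cell cycle inhibitors stood out among the higher genes. Cdkn1a, which encodes p21, reached 24.1 counts per 1000 in members and 3.47 in other kept cells, 6.94-fold (95% interval 6.82 to 7.05). Cdkn1c, the imprinted gene of p57, reached 99.2 counts per 1000 in members and 32.6 in other kept cells, 3.05-fold (3.02 to 3.07). Of the 4 genes of the cell cycle exit list these 2 were called higher, against 3.86% of all genes. Ccng1 (1.25-fold) and Btg2 (0.729-fold) were not. Cdkn1c is a marker given for these cells with earlier results known, so this count is a description. The stress- and growth-arrest gene Gadd45g passed only just, at 2.04-fold (1.89 to 2.20), on 708 counts in members.

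The shares of cells showed the same genes. With every cell thinned to 50 counts, Cdkn1a was found in 63.2% of 3234 members deep enough and in 12.02% of 20000 other kept cells. Without thinning the shares were 91.4% of members and 18.0% of other kept cells. Neuron-type cells (at least 10 counts of Stmn2) held Cdkn1a in 14.8% after thinning, and erythroid-type cells (at least 5 counts of Car2) in 2.04%, from median depths of 144 and 59 counts. Without thinning Cdkn1a was in 34.9% of neuron-type and 2.56% of erythroid-type cells. The 50 thinned counts include Stmn2 and Car2, the genes that picked these cells, which lowers their shares of other genes. Cdkn1c was found after thinning in 95.6% of members and in 56.1% of other kept cells, and Dlk1 in 89.7% of members and in 41.7% of other kept cells. Each of these genes was thus found in most members after thinning.

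**Figure D2:**
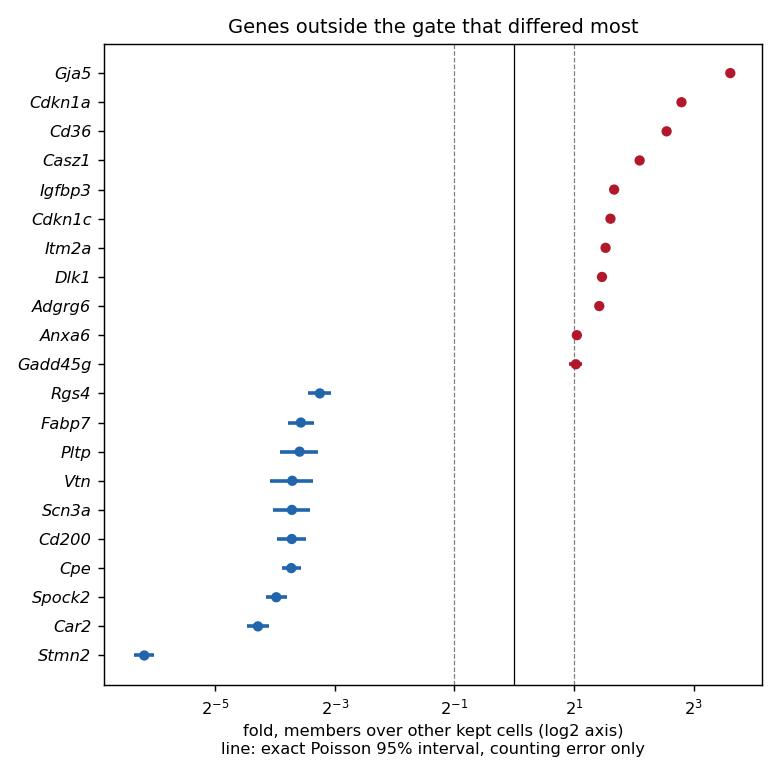
Fold of members over other kept cells on a log2 axis for the 11 genes at least 2-fold higher and the 10 lowest genes outside the gate. Points are folds of counts per 1000, lines their exact 95% intervals for counting error, and dashed lines mark 2-fold; Gja5 lies highest at 12.2-fold and Stmn2 lowest at 0.0137-fold.

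Imprinted genes, which are read from 1 parental copy and many of which act on fetal growth, took a large part of the members' counts. The 5 in the panel summed to 465 counts per 1000 in members, against 249 in other kept cells, 202 in smooth muscle-type cells and 298 in heart-type cells. Of the 5, 2 were called higher, against 3.86% of all genes: Cdkn1c and Dlk1. Both are the markers given for these cells with earlier results known, so this count is a description and no result about imprinted genes. Dlk1, which encodes a membrane protein with EGF repeats, was at 56.7 counts per 1000 in members and 20.5 in other kept cells (2.76-fold, 2.73 to 2.79). H19, a long noncoding RNA of the Igf2 locus, stood at 238 counts per 1000 in members and 139 in other kept cells, 1.71-fold. Gnas (1.24-fold) and Asb4 (1.35-fold) were not called either. Leaving H19 out of the totals raised the folds of Cdkn1c and Dlk1 to 3.44 and 3.12.

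Genes of dividing cells were present in members. Of the 7 proliferation genes 0 were called, against 3.86% of all genes higher and 41.4% lower, with folds of 0.573 (Ccnb1) to 0.812 (Cdk1), and they summed to 15.1 counts per 1000 in members and 22.3 in other kept cells. Their direction depends on the scale: per cell all 7 were higher in members, by 1.20-fold to 1.71-fold. Top2a, the DNA topoisomerase of dividing cells, was found after thinning in 22.2% of the members with Cdkn1a and in 26.4% of the members without it. Transcripts of the inhibitor and of a division gene thus shared outlines. Of the 4 DNA synthesis genes, Rrm2 (0.436-fold) and Dut (0.458-fold), which supply nucleotides, were called lower, 2 of 4 against 41.4% of all genes, and Pclaf and H2afz were not. Both calls are lost per cell.

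The gene with the largest fold was Gja5, which encodes connexin 40, a gap junction protein best known from arterial endothelium and the atria. It stood at 11.6 counts per 1000 in members and 0.9502 in other kept cells, 12.2-fold (11.9 to 12.5). After thinning it was found in 34.7% of members, 3.44% of other kept cells and 0.61% of neuron-type cells. Gja4, another arterial connexin gene, was at 0.670 counts per 1000 in members and 0.577 in other kept cells. The arterial genes Sox17 and Dll4 had fewer counts in members (86 and 85) than the mean blank code (110) and are not compared.

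The other higher genes have varied roles. Cd36, a receptor for fatty acid uptake, was 5.84-fold higher (5.54 to 6.16), at 2.33 counts per 1000 in members and 0.3997 in other kept cells. In other kept cells its 8063 counts lay below the highest blank code, which had 9147, and with the mean blank level taken off the fold was 9.14. Casz1, a zinc finger transcription factor, was 4.27-fold higher and Igfbp3, which binds insulin-like growth factors, 3.18-fold. Igfbp5 was not called (1.21-fold). Itm2a, an integral membrane protein, was at 38.3 counts per 1000 in members and 13.3 in other kept cells (2.88-fold). The adhesion receptor Adgrg6 (2.68-fold) and Anxa6, which binds membranes in the presence of calcium (2.06-fold), complete the 11.

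Against nearby cells the differences were smaller. When the reference was only the other kept cells within 100 µm of a member, Gja5 (6.81-fold), Cdkn1a (4.40-fold), Casz1 (3.63-fold), Cd36 (3.40-fold) and Adgrg6 (2.23-fold) stayed above 2-fold. The other 6 did not: Gadd45g was at 1.95-fold, Cdkn1c at 1.81-fold, Igfbp3 at 1.69-fold, Itm2a at 1.61-fold, Dlk1 at 1.49-fold and Anxa6 at 1.41-fold. Gadd45g was also below 2-fold with the totals of all panel genes, with at least 5 counts of Pdlim3, in packed members alone and with a gate on Pdlim3 per 100 counts, and Anxa6 with other cells weighted to the members' depth.

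Cells next to members held some of the same genes. The 4424 cells that were no members but lay within 30 µm of a packed member (a member with at least 5 others among its 15 nearest cells) held Pdlim3 in 47.4%, against 8.34% of the other non-members. Of 284 genes, 9 were at least 2-fold higher in them than in those other non-members (3.17%) and 75 were lower (26.4%). Gja5 led at 4.81-fold, followed by Igfbp3 (3.96-fold), Cdkn1a (3.32-fold), Cd36 (2.93-fold), Itm2a (2.91-fold) and Dlk1 (2.64-fold). Those genes are also among the ones highest in members. Muscle cells missed by the gate and counts crossing cell outlines would both place such genes here, and their part in the result was not tested.

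The lowest genes included markers of neurons, glia and red cells. Stmn2, a microtubule regulator of growing neurons, was at 0.405 counts per 1000 in members and 29.5 in other kept cells, 0.0137-fold (0.0122 to 0.0154). Car2, the carbonic anhydrase found in red cells, was at 0.0513-fold, followed by Spock2 (0.0634), Cpe (0.0755), Cd200 (0.0759), Scn3a (0.0760), Vtn (0.0763), Pltp (0.0831), Fabp7 (0.0843) and Rgs4 (0.105). Scn3a is a sodium channel of neurons, Fabp7 a lipid binding protein of radial glia, Cpe a processing enzyme of neuroendocrine cells and Vtn the matrix protein vitronectin. All 10 had fewer counts in members than the highest blank code (386), and Scn3a, Vtn and Pltp fewer than the mean blank code (110), so those levels lie at the background of the method.

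Markers of other cell types were counted list by list. Neuronal markers were lower in 5 of 5, glial in 3 of 3, red cell markers in 2 of 2, and the single epithelial and cartilage markers (Spint2 and Cytl1) were lower as well, against 41.4% of all genes. The summed level of the neuronal list was 7.25 counts per 1000 in members and 66.2 in other kept cells. Pericyte markers were lower in 4 of 7 (1.73 counts per 1000 summed in members, 5.30 in other kept cells) and macrophage markers in 3 of 6 (1.65 summed in members, 3.55 in other kept cells). Of the 4 fibroblast and mesenchyme genes only Prrx1 was lower (0.416-fold), while Dcn (0.571-fold), Col1a2 (0.576-fold) and Prrx2 (0.766-fold) were between the limits. That list summed to 12.4 counts per 1000 in members and 21.6 in other kept cells. Transcripts of connective tissue were thus found in members, and their part in the results was not tested. Per cell, the lower calls of Slc1a3, Scn7a, Bpgm, Kcnj8, Pdgfrb, Prrx1 and the 3 macrophage genes are lost, while those of the 5 neuronal genes are kept. In members Slc1a3 (120 counts), Scn7a (108) and Cytl1 (128) lay near the mean blank code (110).

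Matrix and Notch genes differed among themselves. Of 12 collagen and matrix genes 4 were lower, a share no higher than the 41.4% of all genes: Bgn (0.339-fold), Eln (0.394-fold), Mgp (0.399-fold) and Htra1 (0.452-fold), which encode biglycan, elastin, matrix Gla protein and a secreted protease. The basement membrane collagens Col4a1 (1.37-fold) and Col15a1 (1.28-fold) lay above 1. Of 5 Notch genes the ligands Jag1 (0.289-fold) and Dll4 (0.392-fold) and the receptor Notch4 (0.440-fold) were lower, while the receptor Notch1 (0.965-fold) and the target gene Heyl (1.78-fold) were not called, so 3 of 5 were lower against 41.4% of all genes. Dll4 lay below the mean blank code in members. The calls of these lower matrix and Notch genes are lost per cell. Of the 3 chemokine genes 0 were called, against 3.86% of all genes higher and 41.4% lower, with Cxcl12 at 0.537-fold, Cxcr4 at 0.539-fold and Ackr3 at 0.747-fold.

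Smooth muscle-type and heart-type cells were compared as the parts taken to be most like the members, and their likeness was not measured. Smooth muscle-type cells were the 1169 cells with at least 1 count of Acta2, at least 2 of Myh11, and the heart and endothelial limits of the gate. By the opposite limits on Myh11 they could share no cell with the members. Of 285 genes, 20 were at least 2-fold higher in members than in smooth muscle-type cells (7.02%) and 96 lower (33.7%). Cdkn1a stood at 24.1 counts per 1000 in members and 0.759 in smooth muscle-type cells, 31.7-fold (26.7 to 38.0). Gja5 (14.4-fold), Cd36 (10.1-fold), Igfbp3 (6.88-fold), Asb4 (5.86-fold) and Col15a1 (4.85-fold) followed. Dlk1 was 4.34-fold and Cdkn1c 4.18-fold higher. The lowest were Foxf1, a transcription factor of visceral mesoderm, at 0.427 counts per 1000 in members and 13.7 in smooth muscle-type cells (0.0312-fold), then Rgs5 (0.0401), Hand2 (0.0576), Stmn2 (0.0718), Sparcl1 (0.0732) and Pltp (0.0795). Eln, the elastic fibre gene, was at 0.994 counts per 1000 in members and 12.2 in smooth muscle-type cells.

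Heart-type cells (1310 cells with at least 1 count each of Tbx20 and Gata4, and the Myh11 and endothelial limits of the gate) differed in other genes. The heart-type gate asked for no muscle gene, and 30 of these cells held at least 3 counts of Pdlim3. Stmn2 stood at 9.74 counts per 1000 in heart-type cells and 0.405 in members, and Dcn at 12.5 in heart-type cells and 6.25 in members. Whether cells of other kinds were among the heart-type cells was not tested. Of 285 genes, 14 were at least 2-fold higher in members than in heart-type cells (4.91%) and 114 lower (40%). Cdkn1a led again at 8.35-fold (7.56 to 9.24), followed by Igfbp3 (5.39-fold), Itm2a (4.32-fold), Cdkn1c (4.31-fold), Ddit4l (4.21-fold) and Col15a1 (4.19-fold). Dlk1 was 3.85-fold higher. Among the lowest were Stmn2 (0.0416), Hand2 (0.0550), Unc5b (0.0624), Car2 (0.0667) and Gata5 (0.0711), where Hand2 and Gata5 are heart transcription factors.

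Some genes were at like levels in members and heart-type cells. Gja5 stood at 11.6 counts per 1000 in members and 10.3 in heart-type cells, 1.13-fold (1.06 to 1.19), and after thinning in 34.7% of members and 34.8% of heart-type cells, against 2.59% of smooth muscle-type cells. Casz1 was at 4.12 counts per 1000 in members and 3.57 in heart-type cells, Cd36 at 2.33 in members and 1.76 in heart-type cells, and H19 at 238 in members and 206 in heart-type cells. The heart-type cells were shallower, with a median of 91 counts. Of the 11 higher genes, Gja5, Cd36, Casz1, Anxa6 (1.40-fold) and Gadd45g (1.34-fold) did not reach 2-fold over heart-type cells. Anxa6 was at 0.802-fold against smooth muscle-type cells. Cdkn1a, Igfbp3, Itm2a, Cdkn1c, Dlk1 and Adgrg6 passed 2-fold over both smooth muscle-type and heart-type cells.

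**Figure D3:**
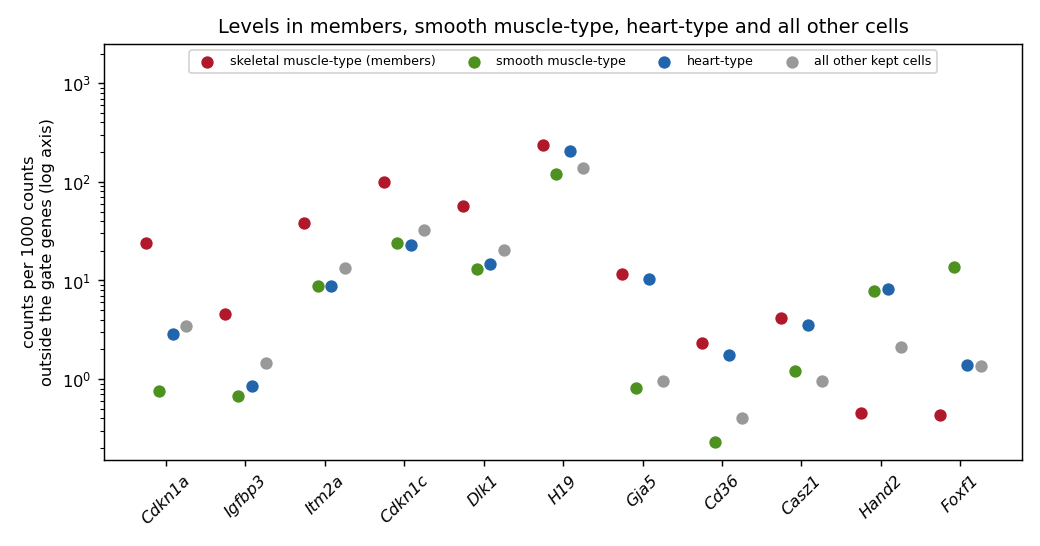
Levels of 11 genes as counts per 1000 counts outside the gate genes, on a log axis, in members (3264 cells), smooth muscle-type (1169), heart-type (1310) and all other kept cells (192651). Each point is the sum over all cells of a kind in the 1 section, so there is no error bar; Gja5, Cd36 and Casz1 lie close in members and heart-type cells, and Cdkn1a is at 24.1 in members against 0.759 in smooth muscle-type cells.

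The patches agreed in the order of members over other cells and differed in level. Dlk1 ran from 44.05 to 79.9 counts per 1000 over the 13 patches (median 56.0), Cdkn1c from 75.4 to 173 (median 97.8) and H19 from 192 to 305 (median 241). Cdkn1a ran from 14.4 to 38.2 (median 26.2), Itm2a from 24.7 to 51.4 (median 38.1) and Anxa6 from 37.6 to 52.7 (median 48.3). Each of these genes was above its level in other kept cells in 13 of 13 patches. Igfbp3 ran from 1.23 to 8.88 counts per 1000 and was above other kept cells (1.44) in 12, the exception being patch 7 with 102 members.

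**Figure D4:**
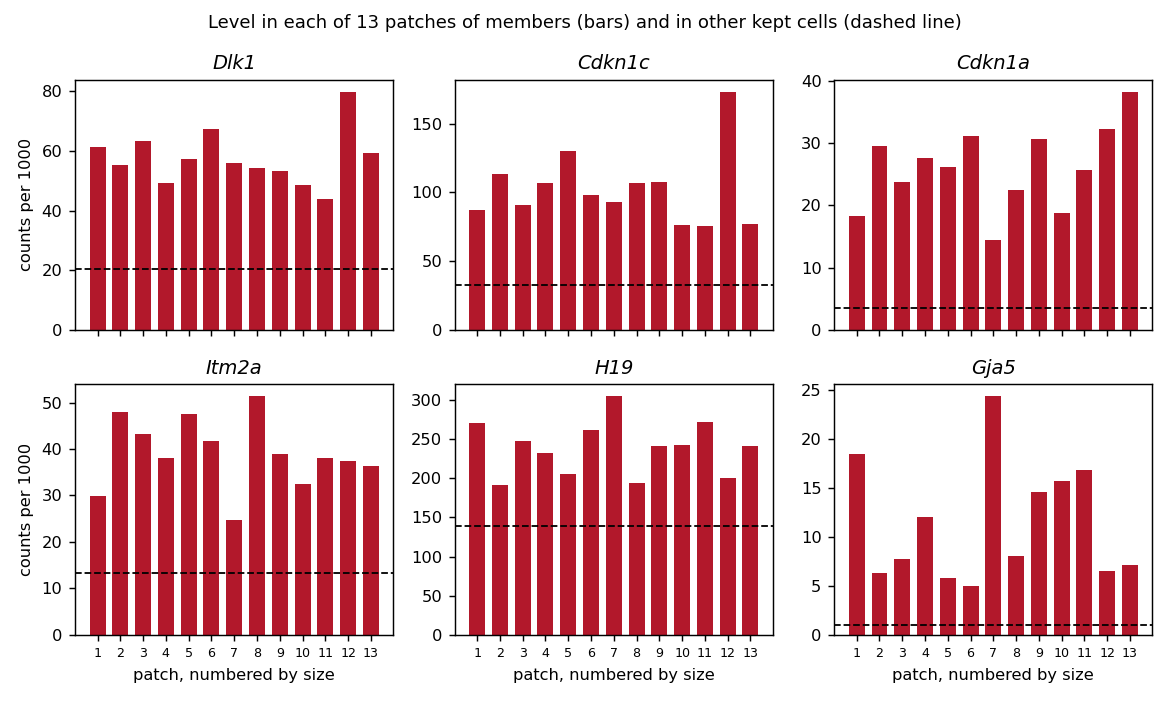
Level of 6 genes as counts per 1000 in each of the 13 patches of at least 30 members (bars, numbered by size) and in other kept cells (dashed line). Each bar is 1 sum over the cells of a patch, without error; every bar lies above its dashed line, and Gja5 is highest in patch 7 (24.3) and lowest in patch 6 (5.02).

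Gja5 was among the genes that varied most between patches. Among genes at 5 or more counts per 1000 in members, the highest patch over the lowest was 5.48 for Dcn, which encodes decorin, 4.85 for Gja5, 3.34 for Fn1 (fibronectin), 3.33 for Fibin, 3.17 for Notch1 and 2.94 for Tsc22d1. Gja5 stood at 24.3 counts per 1000 in patch 7, 18.4 in patch 1, 16.8 in patch 11 and 15.7 in patch 10. It was at 5.02 in patch 6, 5.74 in patch 5 and 6.35 in patch 2. All 13 patches were above the 0.9502 of other kept cells.

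Patches 7 and 1, with the most Gja5, had the lowest levels of Cdkn1a (14.4 and 18.3 counts per 1000) and of Itm2a (24.7 and 29.9), and had H19 at 305 and 271. Over the 13 patches Gja5 had a Pearson r of -0.79 and a Spearman rho of -0.65 with Itm2a, -0.70 and -0.70 with Cdkn1a, and 0.74 and 0.58 with H19. Patches come from 1 section and levels share a total, so these are descriptions. Members were also grouped by their own Gja5, pooled over all patches, so differences between patches enter these groups. Members with at least 5 counts of Gja5 (601 cells) had 18.96 Cdkn1a, 32.7 Itm2a, 71.0 Cdkn1c and 287 H19 counts per 1000. Members without Gja5 (1245 cells) had 26.5 Cdkn1a, 42.5 Itm2a, 113 Cdkn1c and 207 H19 counts per 1000. Their median depths were 246 and 195 counts.

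**Figure D5:**
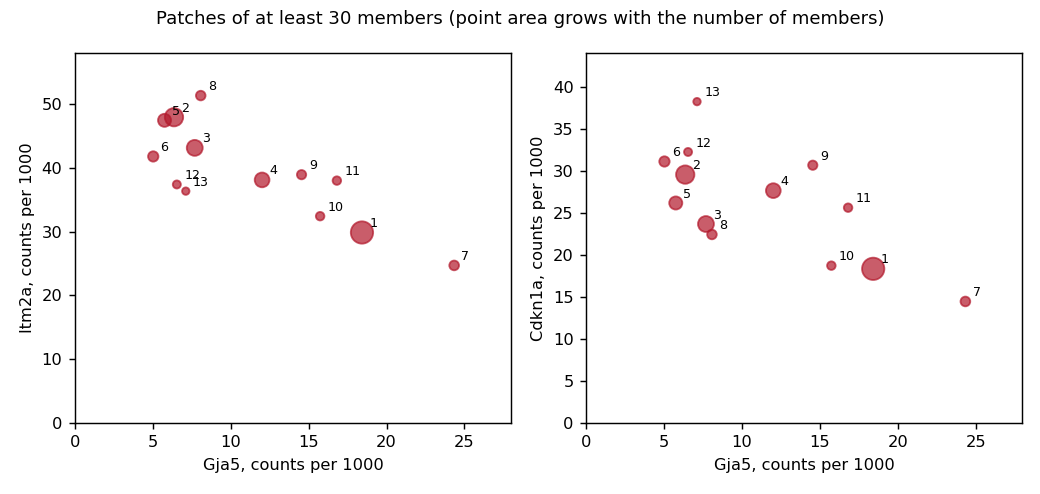
Itm2a (left) and Cdkn1a (right) against Gja5, all as counts per 1000, in the 13 patches of at least 30 members, with point area growing with the number of members. Patches 7 and 1 lie at high Gja5 (24.3 and 18.4) with the lowest Itm2a (24.7 and 29.9), and no test was made because the patches share 1 section.

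Cells with more Pdlim3 had more of some genes and less of others. From 3 or 4 counts of Pdlim3 (1551 members) through 5 to 9 (1308) to 10 or more (405), Gja5 stood at 8.80, 11.9 and 17.9 counts per 1000, Cdkn1a at 21.9, 24.6 and 28.3, Itm2a at 36.2, 38.9 and 42.0, and Casz1 at 3.42, 4.37 and 5.24. Cd36 stood at 1.83, 2.50 and 3.20. In the same order Top2a stood at 7.33, 6.65 and 5.93 counts per 1000, Col1a2 at 6.17, 5.20 and 3.60, and Igfbp3 at 5.13, 4.50 and 3.41. Cdkn1c stood at 101, 101 and 92.0, so it was lower in the last bin only. The median depth grew with the bins, at 188, 226 and 291 counts, and its part in these trends was not tested.

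Packed members (838, or 25.7%) and scattered members (321, with no member among the 15 nearest) were much alike. Of 213 genes 1 was at least 2-fold higher in packed members (0.469%), Sat1, on 51 counts in packed and 6 in scattered members, with an interval of 1.13 to 7.51. The 13 lower genes (6.1%) were led by Fabp7 (0.107-fold), Slc1a3 (0.130-fold), Foxf1 (0.199-fold), Rgs5 (0.271-fold), Kcnj8 (0.304-fold) and Npr3 (0.368-fold). Fabp7 and Slc1a3 mark glia, Rgs5 and Kcnj8 pericytes, and Npr3 the endocardium. Scattered members compared alone with other kept cells kept all 11 of the higher genes, with Gja5 at 8.32-fold.

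A few clumps below 30 members went against the name of the cells. A clump of 16 members at x 4342 and y 1764 µm had 147 Dcn and 25.8 Foxf1 counts per 1000, with 11.9 Dlk1, 11.9 Cdkn1c and 0.290 Cdkn1a. Another of 11 members at x 3928 and y 1388 µm had 14.3 Foxf1 and 11.3 Hand2 counts per 1000, with 11.8 Dlk1 and 0.512 Cdkn1a. Over the section 22 members held at least 3 counts of Foxf1, with 24.9 Dlk1, 35.5 Cdkn1c and 3.28 Cdkn1a counts per 1000. The gate thus admits some cells whose genes are those of visceral mesoderm. Any Foxf1 or Hand2 was held by 339 members (10.4%). These had 53.6 Dlk1, 95.4 Cdkn1c and 20.2 Cdkn1a counts per 1000, against 57.1, 99.8 and 24.6 in the other members. Without thinning, Foxf1 was found in 5.39% of members and 7.55% of other kept cells. Hand2 was found without thinning in 6.37% of members and 7.01% of other kept cells. Those shares favour the members, which were deeper. With cells thinned to the same depth, Foxf1 was found in 1.67% of members and 4.985% of other kept cells. Hand2 was found after thinning in 2.16% of members and 5.325% of other kept cells. Without those 339 cells the 11 higher genes kept their calls.

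The same gate was counted at E9.5 as a description. It picked 0 of 830 kept cells in the first E9.5 section, where an exact 95% interval reaches 0.443%, and 4 of 6334 (0.0632%, 0.0172 to 0.162%) in the second. In that second section 125 cells held at least 3 counts of Pdlim3 with Acta2, so nearly all of them were removed by the limits on heart, smooth muscle and endothelial genes.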

How the data were processed

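The authors deposited, per section, whole-number counts per cell and panel gene and a table of cell positions, volumes and shapes. Per the labels, imaging, segmentation and decoding were done on the Vizgen MERSCOPE platform with 296 MERFISH probes and 4 sequential probes, which were not used here. Their settings were not given in the sources used here, and the submitters' processing notes name Scanpy and Seurat without a role. The headers give no unit, so the deposited positions and volumes were read as micrometres and cubic micrometres. No cell identifier was shared between sections (0 in each pair). Kept cells of the E15.5 section held 749958 counts in members and 20477387 in other cells. No doublet caller was run, since outlines rather than droplets set the cells.

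Counts were summed over cells with Python 3.11.15, NumPy 2.4.6, pandas 2.3.3 and SciPy 1.17.1. A gene was used with at least 50 counts, seen or expected, in the first set of cells. Levels were divided by the total of the 286 genes outside the gate, folds have exact conditional 95% intervals for counting error, and a gene was called at 2-fold. The folds, their intervals and the neighbour share were tested on simulated data, while the summing over cells and the calls were not. Thinning drew 50 counts outside the gate from each cell, from at most 20000 cells of a kind, and left out 30 members and 60720 other cells as too shallow. The text names up to 12 highest and 10 lowest genes against other cells, 6 of each in the other comparisons, the panel members of the marker lists, and the genes that vary most between patches. A gene that this rule names against heart-type cells is not reported here. Patches, clumps and the genes set beside Gja5 were chosen after their values were seen. The members and lists were chosen with earlier results of these data known. Promoters came from RefSeq by gene symbol. The alternatives were 10 planned settings of each fold and 5 added after seeing the data, beside other gates and neighbourhoods.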

Additional observations from a re-analysis of the deposited data

Results flagged for a closer look

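Levels of the second E9.5 section are not compared with those at E15.5 here. In it 4 of 6334 kept cells passed the gate, against 0 of 830 in the first E9.5 section. These 4 cells held 14 Pdlim3, 12 Acta2, 23 Dlk1, 35 Cdkn1c and 18 Itm2a counts in all, with 29 Hand2 and 22 Gata5 counts and 0 of Cdkn1a. Hand2 stood at 17.7 counts per 1000 in them and 5.50 in the other kept cells of that section, and Gata5 at 13.4 in them and 5.69 in the others.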

How the results depend on the processing

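The number of members was 4684 with at least 2 counts of Pdlim3 and 1713 with at least 5, 4235 with no Acta2 needed and 1785 with at least 3 counts of it, 2337 with the endothelial genes at 0, and 902 with a gate on Pdlim3 per 100 counts. The share of members among a member's neighbours was 23.4% over 5, 17.8% over 50 and 16.7% within 50 µm. The higher and lower genes numbered 54 and 31 per cell, 27 and 55 per cell volume, 19 and 181 at 1.5-fold and 6 and 61 at 3-fold, and 61 were lower in scattered members. The folds of Cdkn1c and Dlk1 were 2.96 and 2.68 with totals of all panel genes, 6.40 and 5.80 per cell, 4.87 and 4.41 per cell volume, 2.58 and 2.40 with other cells weighted to the members' depth, 2.92 and 2.73 with at least 5 Pdlim3 counts, 1.81 and 1.49 against other cells within 100 µm, and 2.97 and 2.79 in packed members. They were 3.17 and 2.69 without patch 1, 3.44 and 3.12 with totals without H19, 2.61 and 2.70 with the gate per 100 counts, and 3.08 and 2.73 with endothelial genes at 0. Dlk1 was at 2.50 in scattered members. Of the 11 higher and 10 lowest genes named, 0 changed direction under the settings of the folds. The other called genes were not followed one by one, and per cell any fold above 0.476 passes 1. With the values of single genes, 262 moved by more than their counting interval and 203 did not. The median log2 fold of all genes was -0.82 as reported, 0.25 per cell, -0.15 per cell volume and -0.55 against cells within 100 µm. No paired analysis was possible because the groups share fewer than 2 replicate numbers and E15.5 has 1 section, which also left no replicate to leave out. Low genes are limited by the blank codes, which averaged 110 counts in members.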
